A study of Mus musculus with 12 samples.

Results

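The genes described here are those of the Wnt signalling pathway, from the secreted Wnt ligands through their receptors and antagonists to the nuclear Tcf and Lef factors. They were matched by gene name in the array's own annotation, by a rule that uses no expression value. The rule matched 78 probes for 52 genes among the 41174 probes of the array. Of these genes 34 had 1 probe and 18 had several. No probe of the array matched the name Tcf7l1.

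The RNA came from the hypertrophic zone of the tibial growth plate, the layer in which cartilage cells enlarge before bone replaces them, microdissected from mice 14 days old. Schmid mice carry the p.Asn617Lys mutation of Col10a1, which encodes collagen X, and are a model of metaphyseal chondrodysplasia type Schmid. They were homozygous for it according to the study. Cog (ColXTgcog) mice carry a transgene in which the Col10a1 promoter drives a misfolding form of thyroglobulin, so that the transgene is restricted to cells using that promoter, and hemizygous and homozygous animals were not told apart. Each mutant had its own wildtype littermates, here called WtSchmid and WtCog, and each of the 4 groups was measured on 3 arrays, 1 tibia from 1 mouse per array. The comparisons ask how pathway genes in each mutant zone differ from their own wildtype, and whether the difference is the same in the mutant with misfolded collagen X and in the mutant with misfolded thyroglobulin.

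Wnt ligands are lipid-modified secreted proteins that bind Frizzled receptors together with the co-receptors Lrp5 or Lrp6. In the canonical branch, Dishevelled proteins then block a destruction complex built on Axin and Apc, β-catenin (Ctnnb1) accumulates, and it acts in the nucleus through Tcf and Lef factors. Secreted antagonists act outside the cell, with Dkk proteins binding the co-receptors and Sfrp proteins, Frzb and Wif1 binding the ligands. In the growth plate, ligands such as Wnt5a and Wnt5b and the level of β-catenin signalling are known to set the pace of chondrocyte proliferation and hypertrophy.

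Levels below are log2 normalised intensities. A probe was called when its limma p-value, adjusted over all 41174 probes, was at most 0.05 and its change was at least 2-fold, and differences are given in log2 with their standard error (SE). Several of the results turn on genes whose probes behaved differently, so the first 30 of the 60 bases of these probes are shown, all in lower case, with the place of the whole probe on the mm7 build that the scanner files name. For Tcf7l2 all 4 probes lay on chromosome 19, plus strand, and 3 of them were called lower in Schmid.
A_52_P146043, chr19:55823461-55823520: gtacagcaatgaacacttcaccccgggaaa
A_52_P494915, chr19:55839897-55839956: gactgataaagaaaacaaaagcggaacaaa
A_52_P316355, chr19:55846946-55847005: gccgtggctacatgagttaatgtttatgga
A_52_P566741, chr19:55848072-55848131: gatttgtatgtagttttaatgtcacctata
They are listed in order along the chromosome, with 16436, 7049 and 1126 bases from the start of each probe to the start of the next. The second of them, the one that was not called, is annotated on the array to a different cDNA entry from the other three. For Ctnnb1 the 3 probes lay on chromosome 9, plus strand, and the first below was the only one called lower in Schmid.
A_52_P472397, chr9:120654491-120654550: aagggacatggagtgtaatgtactgttgtg
A_51_P272046, chr9:120657994-120658053: gaaggagatgttcatgtgtggaagtttctc
A_52_P424585, chr9:120658490-120658549: ttctaagaaccgagtaatggtgtagaacac
The called probe is annotated to a separate cDNA clone and starts 3503 bases before the second, which starts 496 bases before the third. The Frizzled genes Fzd7 and Fzd2 also had a pair of probes each that differed, on chromosome 1 and chromosome 11, plus strand.
Fzd7 A_51_P142107, chr1:59735681-59735740: agccccgactttacagtcttcatgatcaag
Fzd7 A_52_P552665, chr1:59737506-59737565: aagggaaggtgaacttcaaagtgattctgg
Fzd2 A_51_P404077, chr11:102715340-102715399: tcacagtctacatgatcaaatacctcatga
Fzd2 A_52_P129428, chr11:102716772-102716831: cgtgacattctatatcataagatattgata
Whether these bases lie in coding or untranslated exons was not analysed here, because no gene model of the mm7 build was used.

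Facts of the whole set bear on how far these genes can be read. Between 39.6% and 61.8% of the spots on an array were well above background. Transcripts of Tgn, the thyroglobulin gene, were at 17.37 to 17.95 on the Cog arrays and at 9.44 to 10.22 on all others over both of its probes, as the labels of the Cog arrays have it. Col10a1 was at 13.69 to 14.95 in Schmid and 12.99 to 15.79 in WtSchmid, and since the mutation changes 1 amino acid its level checks no label. All 5 of the chondrocyte markers on the array (Sox9, Hapln1, Col2a1, Col9a1 and Matn3) and all 5 hypertrophic markers were well above background in each of the 4 groups. All 6 osteoblast and all 5 muscle markers on the array also cleared background on some array of each group. Clearing background therefore does not single out the labelled tissue. The 3 Schmid arrays shared a slide, 2 of the WtSchmid arrays had another, the third WtSchmid array lay with the 3 Cog arrays, and the 3 WtCog arrays had a slide of their own. Slide and genotype therefore cannot be told apart for Cog, and no slide held Schmid arrays together with their wildtype. The Schmid arrays and 2 WtSchmid arrays were scanned on 1 day and the rest on another.

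Of the 52 genes, 17 had a probe well above background on all 12 arrays, namely Wnt1, Wnt4, Wnt5b, Wnt6, Wnt7b, Wnt9b, Wnt11, Fzd2, Fzd9, Fzd10, Lrp5, Frzb, Sfrp4, Sfrp5, Ctnnb1, Dvl1 and Tcf7l2. Another 3 (Wnt8a, Wnt16 and Dkk4) were well above background on no array. By probe, 21 of 78 (26.9%) were well above background on all 12 arrays, against 31.1% of all probes, and 13 (16.7%) on none, against 28.4%. Nuclear factors had the highest share measured throughout, 3 of 9 probes, and receptors the lowest, 4 of 18. More member probes cleared the background on all 3 arrays in Schmid (43) and WtSchmid (40) than in Cog (27) and WtCog (29), so a pathway gene near background is better measured in the Schmid pair of groups.

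In the Schmid hypertrophic zone the changes that passed the test all went down. Transcripts of 6 Wnt pathway genes were lower at 8 probes: the ligands Wnt5b and Wnt6, the receptor Fzd4, the antagonist Frzb, the nuclear factor Tcf7l2 at 3 of its 4 probes, and Ctnnb1 at 1 of its 3. These 8 of 78 probes (10.3%) compare with 4.69% of all probes called lower. None of the 78 was called higher by limma, against 5.78% of all probes, and with p left unadjusted (0.05 or less) 2 of 78 were higher (2.56%, against 17.3% of all probes) and 27 lower (34.6%, against 21.9%). The 29 member probes whose 3 Schmid arrays all lay below all 3 WtSchmid arrays compare with 26.1% of all probes, and the 5 whose Schmid arrays all lay above with 19.3%. Over the 78 probes the median change was -0.22, against -0.06 over all probes, and over the 21 member probes well above background on all 12 arrays it was -0.65, with 17 of them negative, against -0.06 over the 12817 such probes of the array.

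**Figure D1:**
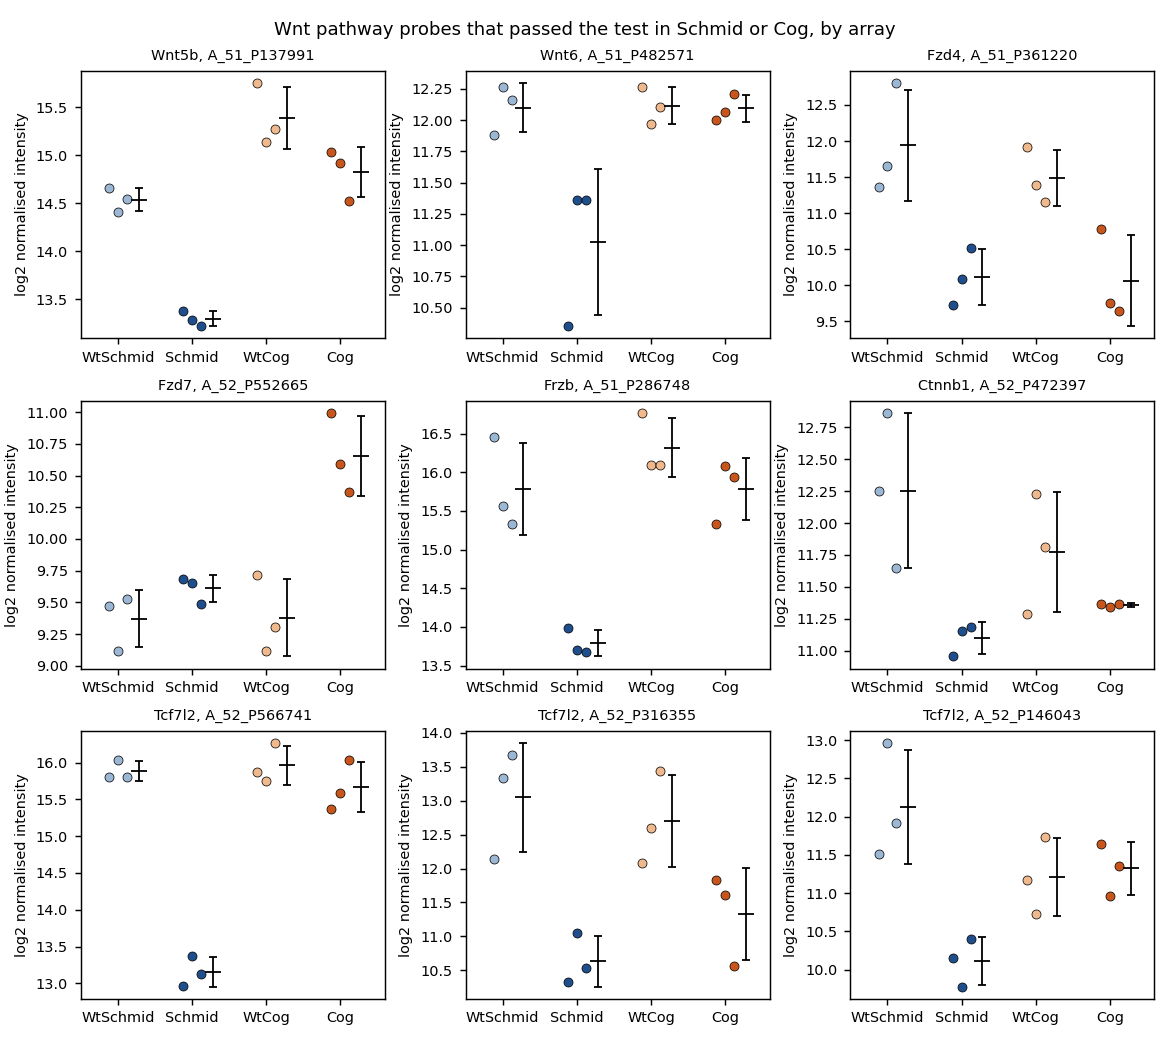
Log2 normalised intensity (y axis, a separate scale in each panel) of the 9 probes that passed the test in Schmid or Cog, with 1 point per array for the 4 groups and the mean ± SD of 3 arrays beside it. In 8 panels the 3 Schmid points lie below the 3 WtSchmid points, and in the Fzd7 panel the 3 Cog points, at 10.37 to 10.99, lie above all others.

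Among the ligands, Wnt5b carried the clearest change. At its brighter probe, A_51_P137991, it was at 13.38, 13.28 and 13.22 in Schmid and at 14.65, 14.41 and 14.54 in WtSchmid. The groups lay more than 1 log2 unit apart while each spanned under 0.3, and the change of -1.24 (SE 0.18, adjusted p = 0.00123) was 2.36-fold. The second Wnt5b probe, A_52_P85805, stood at 9.41 to 9.59 in Schmid and 9.89 to 11.12 in WtSchmid, a change of -0.99 (adjusted p = 0.0326) that fell just short of 2-fold.

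Wnt6, a ligand with roles in epithelial and limb patterning, was at 10.35, 11.36 and 11.36 in Schmid and at 11.88, 12.26 and 12.16 in WtSchmid. All 3 Schmid arrays were below, with the first of them 1 log2 unit under the other two, and the change was -1.08 (SE 0.24, adjusted p = 0.0114). The call ended without Schmid array 1 (-0.74) or without WtSchmid array 2 (-0.998), and it ended when only the arrays scanned on the Schmid day were compared (-1.05, adjusted p = 0.123). The second Wnt6 probe was well above background on no array.

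The other Wnt ligands had 19 probes for 17 genes. Of these, 8 probes had all Schmid arrays below all WtSchmid arrays, against 26.1% of all probes, and 4 had them above, against 19.3%. The median change was -0.19. Wnt5a, a ligand of the non-canonical branch, was at 9.35 to 9.56 in Schmid and 9.74 to 10.15 in WtSchmid, a change of -0.46 (adjusted p = 0.0269) that stayed under 2-fold. Wnt7b, at 10.11 to 10.31 against 10.48 to 10.93, likewise passed on p alone (-0.54, adjusted p = 0.0222). Wnt4 (-0.57, adjusted p = 0.0666), Wnt11 (-0.30, adjusted p = 0.319), Wnt1 (-0.09) and Wnt9b (-0.23) did not pass although they were well above background on all 12 arrays. Porcn, the acyltransferase that attaches the lipid to Wnt ligands, was at 10.91 to 11.14 in Schmid and 10.47 to 11.05 in WtSchmid, with overlap.

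Frizzled and Lrp receptors gave 1 call. Fzd4, which also serves as receptor for Norrin in blood vessel growth, was at 9.73, 10.09 and 10.52 in Schmid and at 11.36, 11.65 and 12.81 in WtSchmid. The groups did not overlap, and the change was -1.82 (SE 0.42, adjusted p = 0.0118), or 3.54-fold. Within the Schmid scan day it was -1.39 (adjusted p = 0.0354). Markers of endothelial cells moved in the same direction: of 5 on the array, Cdh5, Kdr and Emcn were called lower in Schmid, Pecam1 was well above background on none of the 12 arrays, and the summed level of the 5 was 12.19 to 12.79 in the mutant against 14.13 to 14.87 in its wildtype. The part of these cells in the Fzd4 result was not tested, and in tissue RNA fewer cells of a type and less RNA per cell cannot be told apart.

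Fzd10 (-0.84, SE 0.17, adjusted p = 0.00617) lay under the 2-fold limit, with Schmid at 9.72 to 9.99 and WtSchmid at 10.41 to 11.08. Fzd9 changed by more, -1.14, but with WtSchmid spread from 12.15 to 13.34 it did not pass (SE 0.45, adjusted p = 0.0878). The co-receptor Lrp5 was at 9.94 to 11.02 in Schmid and 11.01 to 11.76 in WtSchmid (-0.87, adjusted p = 0.0855), and Lrp6 was well above background on 3 of these 6 arrays (0.40, adjusted p = 0.415). Of 18 receptor probes 8 had all Schmid arrays below their wildtype, against 26.1% of all probes, and none had them above, against 19.3%.

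Of the secreted antagonists Frzb fell. It encodes a soluble Frizzled-like protein that binds Wnt ligands and is made by cartilage cells. Frzb was at 13.99, 13.71 and 13.68 in Schmid and at 16.46, 15.56 and 15.33 in WtSchmid. The highest Schmid array was thus more than 1 log2 unit below the lowest wildtype array, and the change of -1.99 (SE 0.31, adjusted p = 0.00178) was 3.98-fold. Within the Schmid scan day the value was -2.22 (adjusted p = 0.0182).

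Dkk1, the best known Lrp5 and Lrp6 antagonist, was at 9.71, 10.81 and 10.48 in Schmid and at 12.23, 11.34 and 10.99 in WtSchmid at its brighter probe. These groups did not overlap, but their spread was wide and the change of -1.19 (SE 0.52) did not pass (adjusted p = 0.118). Wif1 was at 10.41 to 10.73 in Schmid against 13.61, 11.10 and 10.24 in WtSchmid, where 1 wildtype array was far above the other two (-1.09, adjusted p = 0.312). Sfrp4 and Sfrp5 overlapped between the groups, and Sfrp1 was well above background on 2 of these 6 arrays at its brighter probe.

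Among the cytoplasmic transducers the probes of Ctnnb1, which encodes β-catenin, went apart. The brightest, A_52_P424585, was at 16.37, 15.80 and 16.14 in Schmid and at 16.19, 14.78 and 15.18 in WtSchmid (0.72, adjusted p = 0.197). The second, A_51_P272046, was at 12.69 to 13.17 and at 12.12 to 13.45 (0.32, adjusted p = 0.584). Both overlapped between the groups.

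The dimmest Ctnnb1 probe, A_52_P472397, was at 10.95, 11.16 and 11.19 in Schmid and at 12.25, 12.86 and 11.65 in WtSchmid, and it was called lower (-1.16, SE 0.29, adjusted p = 0.0182). It ceased to be called without Schmid array 1 (-1.08, adjusted p = 0.0639), without WtSchmid array 2 (-0.85) and once the trend along array rows was removed (-0.93). That trend matters here because 10.4% of all single-spot probes in the first 30% of the array's rows (1 to 159) were called lower in Schmid, against 2.28% of those in the other rows, and this probe lies in row 90. Thus the 2 brighter Ctnnb1 probes had positive values that did not pass, while the dimmest fell.

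Axin2, a feedback target of canonical signalling, was at 9.67 to 9.95 in Schmid and 9.24 to 11.32 in WtSchmid (-0.53, SE 0.44, adjusted p = 0.402). The 2 probes of Dvl1 (0.04 and -0.33), Dvl2 (0.17), Dvl3 (0.31), Axin1 (-0.03) and the 6 probes of Apc were not called. The 15 transducer probes had a median change of 0.10, the only positive median among the 5 roles.

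**Figure D2:**
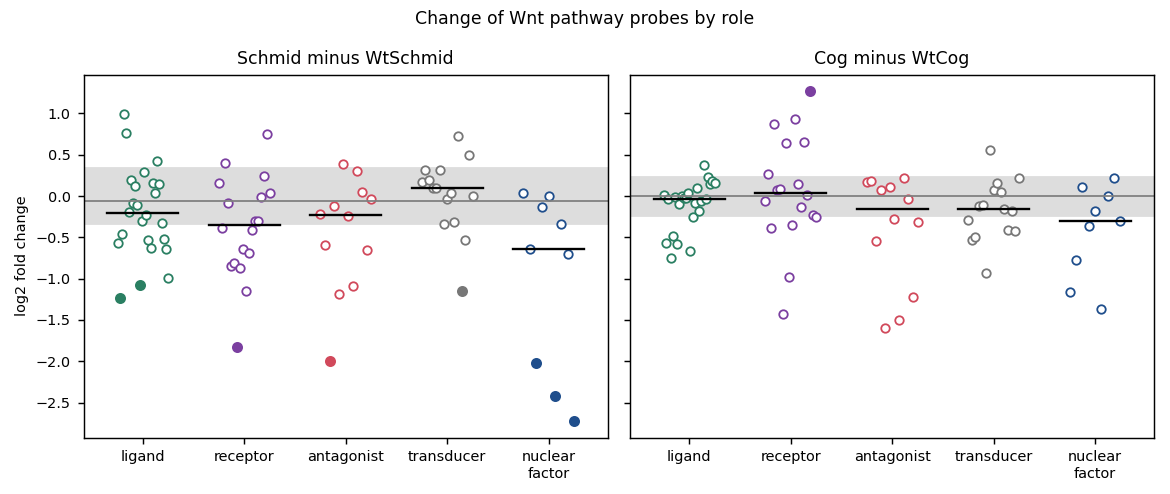
Log2 fold change (y axis) of the 78 probes by role in Schmid (left) and Cog (right), each against its own wildtype, with filled points for called probes, open points for the rest, a black bar for the median of each role, and the grey line and band for the median and the quartiles of all 41174 probes. In Schmid the medians run from 0.10 for transducers to -0.64 for nuclear factors, and in Cog from 0.04 for receptors to -0.30 for nuclear factors.

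Tcf7l2 showed the largest change of the 78 probes. It encodes a Tcf factor that recruits β-catenin to DNA. Its brightest probe, A_52_P566741, was at 12.97, 13.37 and 13.13 in Schmid and at 15.81, 16.04 and 15.80 in WtSchmid. Each group spanned at most 0.4 log2 units while they lay 2.73 apart (SE 0.20, adjusted p = 4.81e-05), a 6.61-fold lower level in Schmid. The probe lies in row 13 of the array, and with the trend along rows removed the change was -2.47 (adjusted p = 7.29e-05).

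The next probe, A_52_P316355, was at 10.32, 11.05 and 10.53 in Schmid against 12.14, 13.33 and 13.67 in WtSchmid (-2.42, SE 0.48, adjusted p = 0.00584). The third, A_52_P146043, was at 10.15, 9.78 and 10.41 against 11.51, 12.96 and 11.91 (-2.02, SE 0.38, adjusted p = 0.00438). Both had all Schmid arrays below all wildtype arrays. The fourth, A_52_P494915, also had them below, at 9.77 to 10.23 against 10.31 to 11.17, with a change of -0.70 (adjusted p = 0.102). Within the Schmid scan day the 3 called probes changed by -2.77, -2.10 and -2.12 (adjusted p = 0.00846, 0.0368 and 0.0457).

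No probe of the other nuclear factors was called. Lef1 was at 9.73 to 10.10 in Schmid and 10.03 to 11.21 in WtSchmid at its brightest probe (-0.64, SE 0.35, adjusted p = 0.203), and the 2 probes of Tcf7 changed by -0.14 and 0.01.

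**Figure D3:**
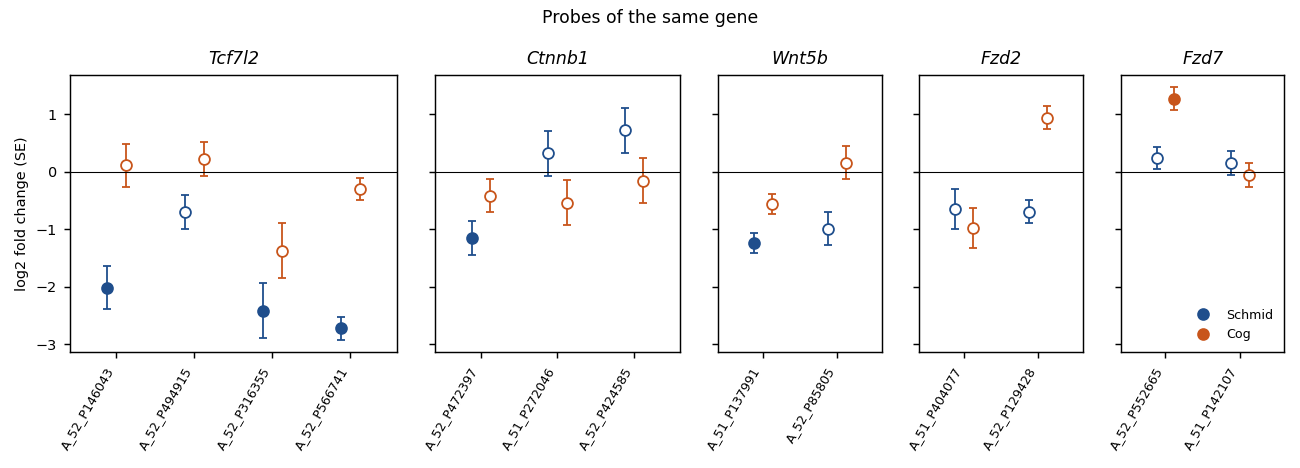
Log2 fold change ± SE (y axis) of each probe of 5 genes, Schmid against WtSchmid in blue and Cog against WtCog in orange, with filled points for called probes. Probes of Tcf7l2 and Ctnnb1 stand in their order along the chromosome and the others by brightness, and 3 of 4 Tcf7l2 probes but 1 of 3 Ctnnb1 probes were called lower in Schmid.

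When the 2-fold limit was set aside, 20 member probes were lower in Schmid at an adjusted p of 0.05 or less, against 13.3% of all probes, and 1 was higher, against 10.6%. Of the 12 lower probes that were not called, 3 were well above background on all 6 arrays (Wnt5b at its second probe, Fzd10 and Wnt7b). The 1 higher probe was Wnt3a, a canonical ligand, at 9.31 to 9.42 in Schmid and 8.46 to 8.83 in WtSchmid. It was well above background on 1 Schmid array and no WtSchmid array, and counting the wildtype arrays at the dimmest level measured above background gives no lower bound on a rise.

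Markers of several cell types fell in the Schmid zone beside these genes. Of the 5 red cell markers 3 were called lower, with a summed level of 14.59 to 16.05 in Schmid and 17.94 to 19.91 in WtSchmid, and of the 6 markers of proliferating cells 3 were called lower, at 13.57 to 13.92 against 15.24 to 16.21. Of the 6 osteoblast markers 1 was called lower (Col1a1), at 17.28 to 18.26 against 18.59 to 19.76, and of the 6 osteoclast and macrophage markers 1 (Csf1r), as were Thy1 among 6 perichondrial markers and Ihh, an inducer of growth plate proliferation, among 5 hypertrophic markers. No lymphocyte or muscle marker was called. No chondrocyte marker was called, at 19.39 to 19.68 against 19.69 to 20.15. The part of these cells in the Wnt results was not tested.

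The Cog hypertrophic zone gave a single call among these genes. Fzd7, a Frizzled receptor, was at 10.99, 10.59 and 10.37 in Cog and at 9.72, 9.12 and 9.31 in WtCog at probe A_52_P552665. The groups did not overlap (1.27, SE 0.20, adjusted p = 0.00945), and since the probe was well above background on all 3 Cog arrays and on no WtCog array, the level was at least 2.22-fold higher, counting each wildtype array at no less than the dimmest level measured above background on it. This 1 probe of 78 compares with 1.56% of all probes called higher. With only the 6 Cog and WtCog arrays in the fit, which are also those of 1 scan day, the same change had an adjusted p of 0.0583. The second Fzd7 probe, A_51_P142107, was at 9.19 to 9.43 in Cog and 9.35 to 9.37 in WtCog and was well above background on none of the 6. Markers of other cells called in the same comparison were Myh3, higher, among 5 muscle markers (1.23, adjusted p = 0.0222), and, lower, Ihh among 5 hypertrophic, Dmp1 among 6 osteoblast, Thy1 among 6 perichondrial and Cd3e among 6 lymphocyte markers. The summed muscle markers were at 12.84 to 13.69 in Cog and 13.18 to 16.03 in WtCog. The part of these cells in the Fzd7 result was not tested.

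No member was called lower in Cog by limma, against 0.748% of all probes, and by unadjusted p at the 0.05 level 8 were lower (10.3%, against 9.97% of all probes) and 5 higher (6.41%, against 11.3%). When the limit on size was dropped and adjusted p kept, 3 of the 78 changed, against 4.58% of all probes: Fzd7, the dimmer probe of Fzd2 (0.93, adjusted p = 0.0293) and Dvl3 (-0.94, SE 0.15, adjusted p = 0.0101). Dvl3, a Dishevelled protein, was at 10.27, 10.19 and 9.99 in Cog and at 10.93, 11.17 and 11.16 in WtCog, without overlap and just under 2-fold. The 11 member probes whose Cog arrays all lay below WtCog compare with 13.0% of all probes, and the 9 whose Cog arrays all lay above with 16.4%. The median change of the 78 probes was -0.06, against 0.00 over all probes.

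Genes that fell in Schmid had these values in Cog. Tcf7l2 at its brightest probe was at 15.36 to 16.04 in Cog and 15.76 to 16.26 in WtCog (-0.30, adjusted p = 0.414), with overlap. Its probe A_52_P316355 was at 11.83, 11.61 and 10.56 in Cog against 12.08, 12.60 and 13.43 in WtCog, without overlap (-1.37, adjusted p = 0.131), and was called when arrays were weighted by quality (-1.29, adjusted p = 0.0442). Its probe A_52_P146043 overlapped (0.11, adjusted p = 0.894). Thus 1 of the 3 Tcf7l2 probes that fell in Schmid separated the groups in Cog, short of the threshold. Frzb was at 15.33, 16.08 and 15.93 against 16.77, 16.09 and 16.10, just without overlap (-0.54, adjusted p = 0.350). Wnt5b was at 14.53 to 15.03 against 15.13 to 15.76 (-0.56, adjusted p = 0.104), and Wnt6, with overlap, at a mean of 12.09 against 12.12 (-0.02, adjusted p = 0.972).

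Fzd4 was at 10.78, 9.76 and 9.64 in Cog and at 11.92, 11.39 and 11.15 in WtCog. These groups did not overlap either, and the change of -1.42 (SE 0.42) missed the threshold (adjusted p = 0.0835). It was called when arrays were weighted by quality (-1.24, adjusted p = 0.0402) and with slide as a random block (-1.31, adjusted p = 0.0348). The call also came with scan day as a block or without WtSchmid array 3 (adjusted p = 0.0443), and under no other alternative. Fzd4 was well above background on 1 of the 3 Cog arrays, so these values rest partly on signal near background. The summed endothelial markers were at 13.07 to 14.17 in Cog and 14.47 to 14.84 in WtCog, with none of the 5 called. Dkk1 was at 9.54, 9.64 and 11.45 against 12.26, 11.65 and 11.49, where the third Cog array was close to the wildtype arrays (-1.59, SE 0.52, adjusted p = 0.113), and without that array the change was called (-2.21, adjusted p = 0.0262). Dkk1 too was well above background on 1 of the 3 Cog arrays, so both changes rest on Cog signal near background. Wif1 was at 10.08 to 10.81 in Cog, with WtCog at 12.82 and 11.17 on the 2 arrays that gave a value (adjusted p = 0.345). Its spot on the third WtCog array was marked as an outlier, so the fit used 11 arrays.

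**Figure D4:**
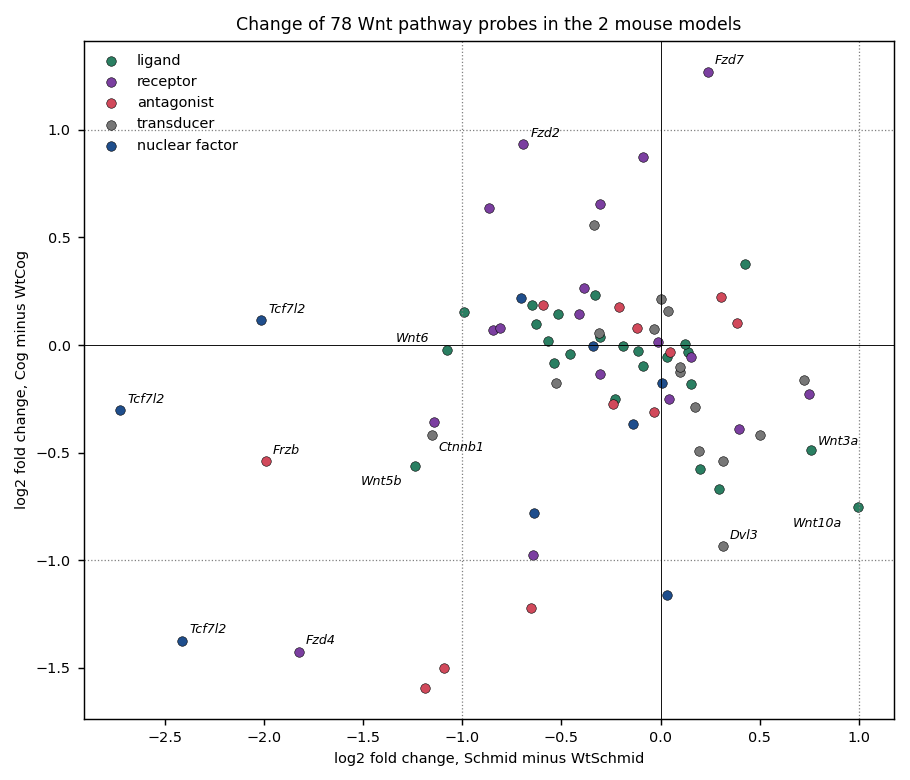
Log2 fold change of each of the 78 probes in Schmid against WtSchmid (x axis) and in Cog against WtCog (y axis), coloured by role, with dotted lines at 2-fold. Gene names mark probes called in Schmid, in Cog or for the difference between them, and the 3 Tcf7l2 names sit at -2.73, -2.42 and -2.02 on the x axis but at -0.30, -1.37 and 0.11 on the y axis.

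The change in Schmid minus the change in Cog was tested directly in the same fit. Of the 78 probes 5 were called for a lower value in Schmid, against 5.88% of all probes, and 3 for a higher one, against 4.38%. By adjusted p alone 15 passed, against 16.6%. Tcf7l2 differed at 2 probes, by -2.42 (SE 0.28, adjusted p = 0.000814) at A_52_P566741 and by -2.13 (SE 0.53, adjusted p = 0.0227) at A_52_P146043. The second lost its call without Schmid array 2 (-1.96), Cog array 1 (-1.97) or WtCog array 2 (-1.89), with adjusted p between 0.0513 and 0.0573. At A_52_P316355 the difference was -1.04 (adjusted p = 0.310).

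Frzb differed by -1.45 (SE 0.44, adjusted p = 0.0472), which did not hold with the replicate number as a block (adjusted p = 0.0571) or under 9 of the 12 fits that left out 1 array. It also ended with the authors' deposited values, with either scaling to the 75th percentile and in the test against a 2-fold change. The Frzb call held in 10 of 24 alternatives. Dvl3 differed by 1.25 (SE 0.21, adjusted p = 0.00411), with Schmid at 10.65 to 10.79 and WtSchmid at 10.11 to 10.59. Schmid thus lay above its wildtype where Cog lay below, but the Schmid change did not pass (0.31, adjusted p = 0.145). WtCog lay above WtSchmid by 0.66 (adjusted p = 0.0722), so the difference also depends on the wildtype levels. The Dvl3 call ended with either scaling to the 75th percentile (adjusted p = 0.0631 and 0.0588), with the trend along array rows removed (0.92) and in the test against a 2-fold change. The dimmer probe of Fzd2, A_52_P129428, differed by -1.63 (SE 0.28, adjusted p = 0.00469): it was at 8.80 to 9.08 in Schmid, 9.47 to 9.78 in WtSchmid, 10.17 to 10.88 in Cog and 9.30 to 9.87 in WtCog. This Fzd2 probe was well above background on no Schmid array, 2 WtSchmid, 2 Cog and 1 WtCog arrays, so the difference compares signals near background. With each Schmid array counted at no less than the dimmest level measured above background on it, the WtSchmid mean was 1.43-fold higher. This is no lower bound, because that mean includes a WtSchmid array on which the probe was not well above background.

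The brighter Fzd2 probe, A_51_P404077, had no such difference (0.33, adjusted p = 0.672), and Cog lay below WtCog there, at 10.91 to 11.59 against 11.87 to 12.40 (-0.98, adjusted p = 0.135). The Fzd7 probe, not well above background on any WtCog array, differed by -1.03 (adjusted p = 0.0324) and kept this call in 3 of the 12 fits that left out 1 array. The Fzd7 call held in 10 of 24 alternatives and ended with the authors' deposited values. Wnt3a differed by 1.25 (SE 0.18, adjusted p = 0.00182) and Wnt10a by 1.75 (SE 0.51, adjusted p = 0.0420). Both were well above background on 1 of 12 arrays, so these values compare signals near background. Wnt10a kept its call in 6 of 23 alternatives and in 2 of the 12 fits that left out 1 array. Wnt3a kept it in 17 of 23, falling to 0.27 under 75th-percentile scaling of the processed signal and to 0.93 with the row trend removed.

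Wnt5b (-0.68, adjusted p = 0.0940), Wnt6 (-1.06, adjusted p = 0.0622), Fzd4 (-0.40, adjusted p = 0.673) and the dimmest Ctnnb1 probe (-0.74, adjusted p = 0.242) were called in Schmid alone, but their changes were not shown to differ between the mutants.

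Between the wildtype groups no member was called by limma, against 0.236% of all probes higher and 0.233% lower in WtCog. By unadjusted p at the 0.05 level 8 of 78 differed, against 14.1% of all probes. The widest wildtype gap was at a Lef1 probe, A_51_P420400, where 1 WtCog array stood at 12.16 and all 11 other arrays between 8.90 and 9.20.

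Other genes of the pathway were read from a separate list of 70, of which 66 were on the array with 130 probes. In Schmid 12 of them were called lower at 13 of the 130 probes, against 4.69% of all probes, and 4 higher at 5, against 5.78%. The lower genes included Tnfrsf19, a receptor gene induced by Wnt signals (5.26-fold), Csnk1e, a casein kinase that phosphorylates pathway proteins (4.94-fold), the non-canonical Wnt receptor Ror2 (4.15-fold) and Sost, which encodes the Lrp5 and Lrp6 antagonist sclerostin (3.36-fold), with adjusted p of 0.00139, 0.00990, 0.000328 and 0.000440. Csnk1a1 was lower at 1 of its 5 probes (3.47-fold, adjusted p = 0.00747). Myc, a growth regulator and Wnt target in other tissues, was called higher at 2 of 3 probes (adjusted p = 0.00867 and 0.00627). At the first, A_51_P102096, it was at 12.63 to 12.95 in Schmid and at 11.57, 9.06 and 8.91 in WtSchmid, where it was well above background on the first array only. The fitted change of 7.64-fold thus rests on wildtype values near background, and without that array it was 13.9-fold. The called probes of Ror2, Sost and Myc lie in the first 30% of the array's rows.

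In Cog 2 of the 66 were called lower, at 2 of the 130 probes, against 0.748% of all probes, and none higher, against 1.56%. The lower genes were Ctnnbip1, an inhibitor that binds β-catenin (4.45-fold, adjusted p = 0.0457), and Gpr177, which carries Wnt ligands to the cell surface (2.12-fold, adjusted p = 0.0374). Ctnnbip1 was at 11.96, 11.68 and 9.57 in Cog against 13.18 to 13.27 in WtCog, and without Cog array 3, the lowest, the change was 2.64-fold. Each of these calls ended in 9 of the 12 fits that left out 1 array. In the direct test the 2 largest differences were in Ror2 (-2.63, adjusted p = 0.000954) and Sost (-2.63, adjusted p = 0.000708).

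Promoter sequences were found for 35 of the 52 genes, 44 promoters in all, in the RefSeq promoter table for GRCm38.p6, which covers the 250 bases before each start and 50 after it. The core bound by Tcf and Lef factors was searched as CTTTGAA or CTTTGAT on both strands. It was present in 3 of the 44 promoters (6.82%), against 8.65% of the 32851 promoters in the table. Of the genes lower in Schmid, Wnt5b had it in 1 of its 3 promoters, and it was also found before Wnt11 and Dkk1. The core of elements bound by the stress factors Atf6 and Xbp1, searched as TGACGTG on both strands, was in 2 of the 44 (4.55%), against 2.01% of all, before Tcf7l2 and Wnt11. Neither search matched in the other 8 promoters of genes lower in Schmid. The 250 bases before the start are shown for the 2 promoters of Schmid-lowered genes that hold a match, 5′ to 3′ on the strand of the gene, with the matched letters in capitals.
Wnt5b promoter, GRCm38.p6 chr6:119449387-119449636, minus strand: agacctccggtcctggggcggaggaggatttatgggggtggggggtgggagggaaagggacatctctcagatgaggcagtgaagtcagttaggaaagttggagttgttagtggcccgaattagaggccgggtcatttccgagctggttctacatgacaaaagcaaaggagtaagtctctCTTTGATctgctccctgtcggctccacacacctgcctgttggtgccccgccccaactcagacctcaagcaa
Tcf7l2 promoter, GRCm38.p6 chr19:55741560-55741809, plus strand: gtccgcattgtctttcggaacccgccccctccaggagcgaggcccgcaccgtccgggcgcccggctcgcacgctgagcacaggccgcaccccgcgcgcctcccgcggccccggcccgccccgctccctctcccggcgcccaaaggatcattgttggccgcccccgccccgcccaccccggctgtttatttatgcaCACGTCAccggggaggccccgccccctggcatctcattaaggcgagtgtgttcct
In Wnt5b the match is CTTTGAT and begins 71 bases before the start. In Tcf7l2 it begins 55 bases before the start and reads TGACGTG on the opposite strand.

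**Figure D5:**
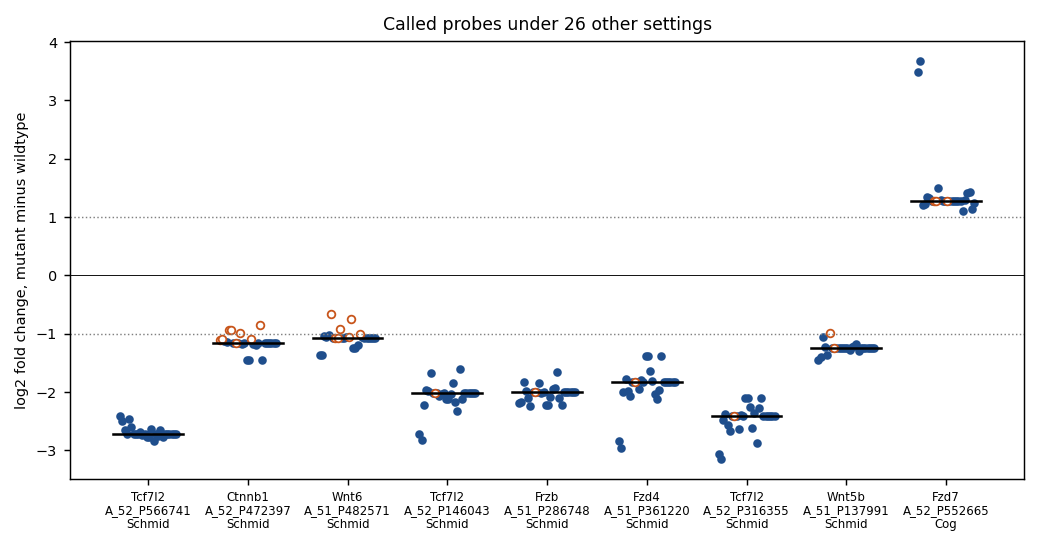
Log2 fold change (y axis) of the 9 called probes under 26 other settings, with filled blue points where the call held, open orange points where it did not, and a black bar for the value reported. Every point lies on the same side of 0 as its bar, and the brightest Tcf7l2 probe was called under all 26.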

How the data were processed

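RNA from the microdissected tibial hypertrophic zone was amplified linearly in 2 rounds and hybridised with a single dye to 12 arrays, 3 for each of 4 groups taken from the sample labels. The authors deposited scanner intensities from Agilent Feature Extraction 9.5.3, of which the mean signal and the median background were used, and a table of log2 values, which the authors made in limma with the same background correction and quantile normalisation as used here. Its values correlated at 0.999871 or more with those computed here, differed from them by at most 0.423, and had array medians of 9.68 to 9.69, so scale, centring and direction were shared. Background was corrected by normexp (offset 50) on all spots, control spots and spots marked as outliers were left out (99.8% kept), arrays were quantile normalised, and spots of a probe were averaged. limma 3.58.1 in R 4.3.3 fitted the 4 group means on 12 arrays (8 residual degrees of freedom), with Benjamini-Hochberg adjustment over 41174 probes. The fit was tested on simulated arrays with independent errors and with changes set only at probes well above background on all 12 arrays. Slide, scan day and row trends were not simulated, so that test does not bear on them or on probes near background. The number of arrays limits the precision.

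Members were all probes whose array gene name fitted the rule, of which 1 lacked a value on an array. Genes with a call in any comparison were given in full at the brightest and each called probe, beside a fixed set of core members, and called genes of the other pathway list by fold, at most 10. The members, the marker lists and the other pathway list were chosen with earlier results of these data known. A summed marker level is the log2 of the summed linear levels of the list's genes, each at its brightest probe. Promoters came from RefSeq, and the mm7 and GRCm38.p6 coordinates are not interchangeable.

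Same-numbered Schmid and WtSchmid arrays deviated from their group means together across the 12817 probes that cleared background on every array (correlations 0.31, 0.28 and 0.12) and less so over all probes (0.19, 0.17 and 0.07). Over the first set the Cog and WtCog arrays did not (-0.21, 0.15 and -0.20). The WtSchmid and WtCog arrays, wildtypes of different mutants, also deviated together there (0.50, 0.12 and 0.27), so this is not particular to Schmid and WtSchmid. The fit with the replicate number as a block is given where it changes a call, without taking the numbers to show a shared origin. Alternatives changed the signal, normalisation, filter, test, arrays fitted, weights, array-row and GC trends, slide, replicate block and each array left out, and the scan day was added after seeing the data.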

Additional observations from a re-analysis of the deposited data

Results flagged for a closer look

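Of the 78 probes 8 had a change in Schmid that differed from the change in Cog in the direct test of that difference, given here as the Schmid change minus the Cog change in log2. Of these, 5 were lower in Schmid, against 5.88% of all probes, and 3 were higher, against 4.38%. Tcf7l2 differed by -2.42 at A_52_P566741 (adjusted p = 0.000814) and by -2.13 at A_52_P146043 (adjusted p = 0.0227), and Frzb by -1.45 (adjusted p = 0.0472). The Frzb call held in 10 of 24 alternatives and ended with the authors' deposited values. The receptor probes differed by -1.63 for Fzd2 at A_52_P129428 (adjusted p = 0.00469) and by -1.03 for Fzd7 at A_52_P552665 (adjusted p = 0.0324). That Fzd2 probe was well above background on no Schmid array and that Fzd7 probe on no WtCog array, so both values rest partly on signal near background. The Fzd7 call held in 10 of 24 alternatives. Dvl3 differed by 1.25 (adjusted p = 0.00411), with the 3 Cog arrays all below WtCog. The ligands Wnt3a (1.25, adjusted p = 0.00182) and Wnt10a (1.75, adjusted p = 0.0420) were each well above background on 1 of 12 arrays. For Schmid and for Cog, slide and genotype cannot be told apart.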

How the results depend on the processing

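Of the called probes, Tcf7l2 at A_52_P566741 was called lower in Schmid under all 26 alternatives, from -2.83 to -2.41. The other 2 Tcf7l2 probes, Frzb and Fzd4 were called under 25, losing the call only in the test against a 2-fold change, Wnt5b under 24, Wnt6 under 19 and Ctnnb1 under 18, and none of these changed sign. Fzd7 was called higher in Cog under 23 of 26. The alternatives overlap, so these are not counts of separate checks. Scan day as a block gave the same Schmid and Cog fits as leaving out WtSchmid array 3. In Cog, the within-day fit was the same as that of only the arrays compared. Leaving out an array of the other mutant or its wildtype kept the size of a change and altered only its p-value.

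The 8 probes lower in Schmid became 14 with quantile normalisation of the scanner's processed signal, 15 with that signal scaled to the 75th percentile, 16 with the same scaling after normexp, 5 with row and GC trends removed and 1 in the test against a 2-fold change. Lower calls in Schmid over all probes went from 1930 to 3984, 4029, 3455, 1392 and 108 in these settings. Both scalings to the 75th percentile moved the median of all probes in Schmid, to -0.40 and -0.35, and the first moved it in Cog to 0.43. Probes higher in Schmid numbered 1 with the quantile-normalised processed signal, 1 with slide as a random block and 1 within the scan day. Over all probes, the higher calls went from 2380 to 2888, 2788 and 1411 in these settings. With slide as a random block the fitted correlation within slides was -0.12. No slide held mutant arrays together with their own wildtype, so that setting cannot separate slide from genotype. Probes higher in Cog numbered 3 with the quantile-normalised processed signal and 0 in the test against a 2-fold change, with only the 6 arrays compared and within the scan day. Over all probes, the higher calls in Cog went from 644 to 1014, 14, 364 and 364. Probes lower in Cog numbered 1 with the quantile-normalised processed signal, 3 with array weights, 2 with slide as a random block and 1 with scan day as a block. Over all probes, the lower calls in Cog went from 308 to 545, 1002, 654 and 334. Probes whose change differed between the mutants numbered 14 with the quantile-normalised processed signal, 14 with array weights, 5 with the row trend removed and 1 in the test against a 2-fold change. Over all probes, those called higher for this difference went from 1805 to 1866, 3148, 1402 and 51. Those called lower went from 2419 to 4378, 3013, 1730 and 161. Between the wildtype groups 1 was called with array weights and 1 with scan day as a block. Over all probes these settings gave 401 and 79 higher in WtCog, and 435 and 110 lower. Wnt10a reversed to -0.5352 (adjusted p = 0.696) for the difference between the mutants, under 75th-percentile scaling of the processed signal. The cause of these changes was not tested.

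Leaving out 1 array gave 6 to 11 probes lower in Schmid, 0 to 2 higher (2, Fzd1 and Ctnnb1, without WtSchmid array 1), 1 to 2 higher in Cog (2 without Cog array 2 or WtCog array 1), 0 to 1 lower in Cog (1 without WtSchmid array 3, Cog array 3 or WtCog array 1), 4 to 11 that differed between the mutants (5 without any 1 of the Schmid arrays, 4 without WtCog array 2) and 0 to 1 between the wildtype groups (Fzd8, without WtSchmid array 1). Over all probes these fits gave 1407 to 2692 lower in Schmid and 1420 to 3683 higher. In Cog they gave 198 to 764 higher and 105 to 581 lower. For the difference between the mutants they gave 1107 to 3021 higher and 1924 to 3139 lower. Between the wildtype groups 48 to 331 were higher in WtCog and 25 to 479 lower.

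With the replicate block, 8 probes were lower and 0 higher in Schmid, 1 was higher and 0 lower in Cog, and 7 differed between the mutants. Over all probes it gave 1975 lower and 2403 higher in Schmid, and 586 higher and 301 lower in Cog. For the difference between the mutants it gave 1777 higher and 2376 lower. The block ended the call of Frzb for that difference (adjusted p = 0.0571) and of no other called probe named here. Of the 78 probes 21 cleared the background on every array, and for the rest a change near background is measured least well.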
